A study of Rattus norvegicus with 48 samples.

Results

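Hspa5, Ddit3 and Trib3, genes of the response to stress in the endoplasmic reticulum (ER), were followed through RNA sequencing of rat liver slices. They are 3 of the 32883 genes in the count table and were taken by their Ensembl IDs, ENSRNOG00000018294 for Hspa5, ENSRNOG00000006789 for Ddit3 and ENSRNOG00000007319 for Trib3. The symbols came with that selection of IDs, since the count table gives IDs alone. All 3 passed the filter on low counts that kept 14775 genes for testing.

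The tissue was precision-cut liver slices, thin sections of living liver kept in culture, so that the transcripts measured are those of a tissue of many cell types. The rats had undergone ligation of the bile duct (BDL), which dams up bile in the liver and is used to produce cholestatic fibrosis, or a sham operation. Ligated slices received SB525334 (BDL_SB525334, n = 9), Nint (BDL_Nint, n = 10), Sora (BDL_Sora, n = 10) or vehicle (BDL_veh, n = 10), and slices from sham-operated rats received vehicle (Sham_veh, n = 9). SB525334 inhibits the kinase of the TGF-beta type I receptor, ALK5. Nint and Sora are read here as nintedanib and sorafenib, multikinase inhibitors that both act on several receptor tyrosine kinases, but the labels give only the short forms. The deposited sample sheet gives all 9 libraries of the SB525334 group a different compound code, so the identity of that compound rests on the labels. No strain, dose, exposure time or animal number stands in the labels, so the p-values reflect how much these libraries vary, and that variation may be technical. Liver markers and other genes of the pathway were not analysed here, because no table used here pairs Ensembl IDs with symbols.

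Unfolded proteins in the ER activate sensors in its membrane, PERK, IRE1 and ATF6, which together drive the unfolded protein response. Hspa5 encodes BiP, the ER chaperone that binds unfolded proteins and holds the sensors inactive, and its transcription is raised by ATF6 and XBP1 through ER stress response elements. Ddit3 encodes CHOP, a transcription factor induced mainly through PERK and ATF4 and known for its part in cell death under prolonged stress. Trib3 encodes a pseudokinase induced by ATF4 and CHOP, also during amino acid shortage; in mouse liver it is known for binding the kinase AKT. Hepatocytes make large amounts of secreted protein and depend on this response.

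The sequences before the start of each gene are shown because the factors named above for Hspa5 differ from those for Ddit3 and Trib3. Each is the 250 bases before the start annotated by RefSeq on assembly GRCr8, read 5′ to 3′ on the strand of the gene, and the files' own build is another, Rnor_6.0. The region of Hspa5 is chr3:38452766-38453015 on the plus strand, that of Ddit3 chr7:65001445-65001694 on the plus strand, and that of Trib3 chr3:161275534-161275783 on the minus strand. Capitals mark matches to the motifs searched.
Hspa5: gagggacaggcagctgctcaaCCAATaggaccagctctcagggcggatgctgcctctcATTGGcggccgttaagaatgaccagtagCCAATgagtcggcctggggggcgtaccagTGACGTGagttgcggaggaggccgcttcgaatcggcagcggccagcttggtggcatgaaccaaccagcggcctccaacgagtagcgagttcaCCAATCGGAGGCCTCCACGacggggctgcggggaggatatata
Ddit3: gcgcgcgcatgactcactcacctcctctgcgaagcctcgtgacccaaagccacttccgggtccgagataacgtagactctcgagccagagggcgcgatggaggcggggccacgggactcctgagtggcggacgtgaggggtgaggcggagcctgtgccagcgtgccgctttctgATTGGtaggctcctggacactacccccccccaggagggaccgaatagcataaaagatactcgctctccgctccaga
Trib3: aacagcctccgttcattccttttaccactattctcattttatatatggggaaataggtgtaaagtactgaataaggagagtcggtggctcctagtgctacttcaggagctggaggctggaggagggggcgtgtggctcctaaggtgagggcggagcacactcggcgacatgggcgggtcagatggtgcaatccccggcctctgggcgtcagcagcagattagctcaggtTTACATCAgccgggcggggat
Motifs were searched on both strands, and a match is a description of letters only. Only exact matches within these 250 bases were counted, so a site that differs by a letter or lies farther away is missed. The ER stress response element, CCAAT and CCACG with 9 bases of any kind between them, matched Hspa5 as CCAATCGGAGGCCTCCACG, 43 to 25 bases before the start; 0.0657% of 33469 RefSeq promoter windows of that length hold such a match. The letters TGACGTG, like the site bound by ATF proteins, matched Hspa5 135 to 129 bases before the start and occur in 1.54% of windows. The CEBP-ATF response element, TGATGNAA, matched Trib3 on the opposite strand as TTACATCA, 21 to 14 bases before the start, and 3.4% of windows hold it. The CCAAT box, CCAAT, matched Hspa5 at 4 places, the nearest to the start being the first letters of the ER stress response element, and matched Ddit3 at 1 place; 34% of windows hold it. The second ER stress response element, ATTGG and CCACG with 1 base of any kind between them, which 0.0418% of windows hold, matched none of the 3 windows, and Ddit3 held no match beyond its CCAAT box.

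All 3 genes were highest, by group mean, in slices with SB525334, and with the scaling used here all 3 were lowest in ligated slices with vehicle. Levels are given as CPM, a count relative to the total of its library, scaled with trimmed-mean (TMM) factors. These factors are meant to correct for the make-up of each library, and whether they do so here was not tested. Genes are compared across groups and not with each other, since no lengths were used. Hspa5 averaged 1633 ± 198.8 CPM in SB525334 slices, 753.3 ± 80.1 in Nint slices, 873.3 ± 63.9 in Sora slices, 670.0 ± 59.0 in ligated vehicle slices and 1076 ± 169.2 in sham slices (SD, n = 9, 10, 10, 10 and 9). Ddit3 averaged 30.9 ± 6.07 CPM in SB525334 slices, 11.25 ± 1.08 in Nint slices, 13.33 ± 1.75 in Sora slices, 11.14 ± 1.08 in ligated vehicle slices and 13.53 ± 3.66 in sham slices. Trib3 averaged 48.61 ± 26.46 CPM in SB525334 slices, 13.21 ± 1.95 in Nint slices, 17.69 ± 1.87 in Sora slices, 8.832 ± 1.25 in ligated vehicle slices and 38.25 ± 5.02 in sham slices. From high to low, the order of the group means was the same for each gene with TMM factors: SB525334, sham, Sora, Nint and ligated vehicle. For Ddit3 that order depended on the scaling: by total counts alone the means were 25.91 CPM with SB525334, 12.33 with Nint, 14.31 with Sora, 12.45 with ligated vehicle and 11.81 in sham slices, so that sham was lowest. Along that order Hspa5 was called different between neighbours except Sora with Nint and Nint with vehicle, and Ddit3 only between SB525334 and sham. Trib3 was called between sham and Sora and between Nint and vehicle, but not between SB525334 and sham or between Sora and Nint.

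**Figure D1:**
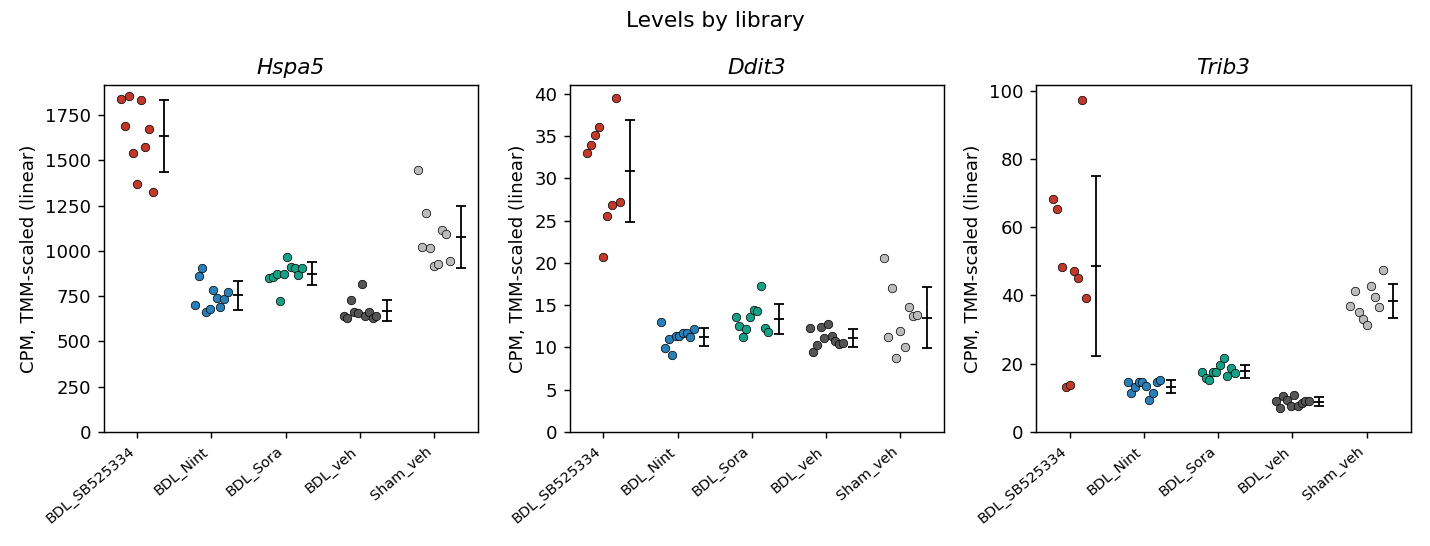
TMM-scaled CPM of Hspa5, Ddit3 and Trib3 (one panel each) in every library of the 5 groups, with the group mean and SD. SB525334 libraries stand above all ligated vehicle libraries in each panel, and Trib3 spreads from 13.21 to 97.23 CPM within the SB525334 group.

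Library depth and composition differed between groups in ways that touch these values. Total counts were 12249470 to 29596987 per library, and the members were well covered, with 9026 to 30380 counts for Hspa5, 126 to 521 for Ddit3 and 112 to 1281 for Trib3. TMM factors were 0.7745 to 0.8994 in SB525334 libraries, 1.039 to 1.137 in Nint, 1.028 to 1.121 in Sora, 1.08 to 1.148 in ligated vehicle and 0.8229 to 0.9072 in sham libraries. The share of non-uniquely mapped reads was 9.85% to 20.85% in SB525334 libraries, 8.1% to 8.89% in ligated vehicle libraries and 10.17% to 12.66% in sham libraries. Mitochondrial reads were 2.19% to 4.49% in SB525334 libraries, 1.33% to 1.54% in ligated vehicle libraries and 2.02% to 2.46% in sham libraries. Intronic reads were 25.98% to 33.11% in SB525334 libraries, 33.74% to 36.76% in ligated vehicle libraries and 24.36% to 31.06% in sham libraries. In all 3 read shares, SB525334 and sham libraries both stood apart from ligated vehicle libraries without overlap and on the same side. The part of these differences in the results below was not tested. A fit with total counts alone and a fit with a quality component as covariate were run as alternatives. The component was 3.42 or more in ligated vehicle libraries and 1.04 or less in SB525334 and sham libraries. For those comparisons the covariate fit therefore cannot part quality from group.

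SB525334 was compared with vehicle in ligated slices to see how these genes differed with the compound; receptor inhibition itself was not measured. All 3 rose, Trib3 the most. Hspa5 ran from 1325 to 1855 CPM with a median of 1673 in SB525334 slices, against 626.6 to 815.3 CPM with a median of 648.5 in vehicle slices. The groups did not overlap, and the chaperone was 2.44-fold higher with SB525334 (log2 fold change 1.29, SE 0.0736, adjusted p = 1.93e-20). Ddit3 ran from 20.73 to 39.54 CPM with a median of 33.06 in SB525334 slices, against 9.429 to 12.71 CPM with a median of 10.94 in vehicle slices. Here too every SB525334 library lay above every vehicle library, and Ddit3 was 2.78-fold higher (log2 fold change 1.47, SE 0.110, adjusted p = 1.69e-16). Trib3 ran from 13.21 to 97.23 CPM with a median of 47.08 in SB525334 slices, against 7.06 to 10.82 CPM with a median of 8.981 in vehicle slices. The groups did not overlap, and Trib3 was 5.51-fold higher (log2 fold change 2.46, SE 0.199, adjusted p = 3.57e-15). These are edgeR quasi-likelihood tests with Benjamini-Hochberg adjustment over all 14775 genes, as are all adjusted p-values of fold changes here; a gene was called at an adjusted p under 0.05. In bulk tissue, a change in how many cells of a type are present and a change in RNA per cell cannot be told apart. How many of all tested genes show no overlap between groups was not counted, in this or any other comparison. Separation of libraries is therefore a description of these genes and is not read as particular to them. In this comparison 38.2% of tested genes were called higher, so being called is common; a larger rise was seen in 0.975% of genes for Trib3, 4.42% for Ddit3 and 6.06% for Hspa5. When libraries were scaled by total counts alone, the median log2 fold change of all genes was -0.377, against 0.0361 with TMM factors, and the share of calls that were higher was 24.5%, against 52.3%. By that scaling the log2 fold changes over vehicle were 0.87 for Hspa5, 1.06 for Ddit3 and 2.07 for Trib3. The size of each rise thus depends on the scaling. With total counts 7 of 9 SB525334 libraries lay above all vehicle libraries for Trib3.

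The SB525334 libraries differed among themselves more in Trib3 than in the other genes, with a coefficient of variation of 54.43% for Trib3, 19.63% for Ddit3 and 12.17% for Hspa5. Trib3 was 68.3, 65.42, 48.24, 13.21, 13.82, 47.08, 45.12, 97.23 and 39.09 CPM in libraries 1 to 9, a 7.358-fold range. Libraries 4 and 5 lay above all vehicle libraries but below every Sora library, and the other 7 lay far above both. On the log2 scale, libraries 4 and 5 were 0.59 and 0.65 above the mean of vehicle libraries, and the other 7 were 2.14 to 3.45 above it. In the other genes no such gap was seen, though library 5 was the lowest of the group in Ddit3: over all 9 libraries Hspa5 was 0.99 to 1.47 above the vehicle mean and Ddit3 0.89 to 1.82. Hspa5 was 1540 CPM in library 4 and 1367 CPM in library 5, and Ddit3 was 36.05 and 20.73 CPM. Library 4 had 20.85% non-uniquely mapped and 4.49% mitochondrial reads, the highest shares of any library, and a TMM factor of 0.7745, the lowest; library 5 had 15.18% and 2.82%. Library 8, the highest in Trib3 at 97.23 CPM, had 10.94% non-uniquely mapped reads. In libraries 1 to 9 that share was 11.27%, 13.42%, 16.68%, 20.85%, 15.18%, 9.85%, 16.01%, 10.94% and 15.62%. Libraries 3, 7 and 9 thus had higher shares than library 5, with Trib3 at 48.24, 45.12 and 39.09 CPM. The part of these read shares in the Trib3 values was not tested. Without libraries 4 and 5, a choice made after their values were seen, Trib3 was 2.73 higher on the log2 scale with SB525334 than with vehicle.

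**Figure D2:**
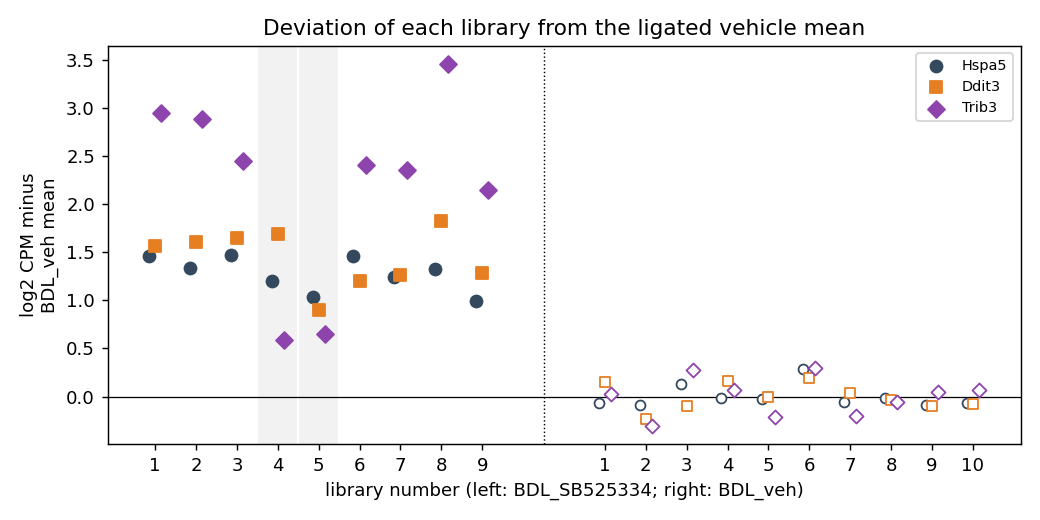
Deviation of each SB525334 library (left, filled; libraries 4 and 5 shaded) and each ligated vehicle library (right, open) from the vehicle mean in log2 CPM, for the 3 genes. Hspa5 and Ddit3 lie between 0.89 and 1.82 in all 9 SB525334 libraries, while Trib3 is 0.59 and 0.65 in libraries 4 and 5 and 2.14 or more in the others.

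Ligation was read from vehicle-treated slices of ligated against sham-operated rats. Hspa5 and Trib3 fell, Trib3 the more. Hspa5 ran from 626.6 to 815.3 CPM with a median of 648.5 in ligated slices, against 915.0 to 1447 CPM with a median of 1023 in sham slices. The groups did not overlap, and the log2 fold change was -0.68 (SE 0.0731, edgeR quasi-likelihood test, adjusted p = 7.44e-12). With total counts alone the log2 fold change was -0.33, and 9 of 10 ligated libraries lay below all sham libraries. Trib3 ran from 7.06 to 10.82 CPM with a median of 8.981 in ligated slices, against 31.45 to 47.4 CPM with a median of 36.78 in sham slices. Again no libraries overlapped, and Trib3 was 4.33-fold lower in ligated slices (log2 fold change -2.11, SE 0.197, edgeR quasi-likelihood test, adjusted p = 1.44e-13). With total counts alone its log2 fold change was -1.77. Ddit3 ran from 9.429 to 12.71 CPM with a median of 10.94 in ligated slices, against 8.786 to 20.64 CPM with a median of 13.66 in sham slices. The ranges overlapped, with the sham libraries spread around the ligated ones, and the log2 fold change of -0.28 (SE 0.110, adjusted p = 0.019) lost its call under RLE scaling (another scaling factor), DESeq2 and other alternatives, and without sham library 1 (-0.19, adjusted p = 0.0971) or sham library 3 (-0.23, adjusted p = 0.055). With total counts it was 0.078, with the opposite sign. Of all tested genes, 42.2% were called lower in this comparison; 2.59% of genes fell by more than Trib3, 23% by more than Hspa5 and 39.9% by more than Ddit3. With total counts the median log2 fold change of all genes was 0.305, against -0.0453 with TMM factors, and 66.1% of calls were higher, against 48.7%.

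Sora raised Trib3 and Hspa5 over ligated vehicle slices. Trib3 ran from 15.15 to 21.53 CPM with a median of 17.55 in Sora slices, against 7.06 to 10.82 CPM with a median of 8.981 in vehicle slices. All 10 Sora libraries lay above all vehicle libraries, and the log2 fold change was 1.0 (SE 0.192, edgeR quasi-likelihood test, adjusted p = 6.14e-05). Hspa5 ran from 720.4 to 968.0 CPM with a median of 872.7 in Sora slices, against 626.6 to 815.3 CPM in vehicle slices. Here 9 of 10 Sora libraries lay above all vehicle libraries (log2 fold change 0.38, SE 0.0712, adjusted p = 4.11e-05). Ddit3 ran from 11.24 to 17.3 CPM with a median of 13.07 in Sora slices, against 9.429 to 12.71 CPM in vehicle slices. Only 5 of 10 Sora libraries lay above all vehicle libraries. The log2 difference of 0.26 (95% interval 0.05 to 0.48, edgeR quasi-likelihood test, adjusted p = 0.0603) was not called. Without Sora library 3, the lowest of its group in Ddit3, it was 0.29 (adjusted p = 0.0447). Without vehicle library 6, the highest of its group, it was 0.28 (adjusted p = 0.0484). Leaving out either library raises the difference by itself. With the 2 groups fitted alone it was 0.24 and was called (edgeR quasi-likelihood test, adjusted p = 0.0088). That fit called 6057 genes in either direction, against 4323 in the fit of all libraries. Of all tested genes, 16.3% were called higher with Sora, and 3.63% had a larger rise than Trib3; of the calls 55.7% were higher, against 38.1% with total counts.

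Nint raised Trib3, the 1 gene of the 3 called in the fit of all libraries. Trib3 ran from 9.24 to 15.15 CPM with a median of 13.96 in Nint slices, against 7.06 to 10.82 CPM in vehicle slices. In 9 of 10 Nint libraries it lay above all vehicle libraries (log2 fold change 0.58, SE 0.193, edgeR quasi-likelihood test, adjusted p = 0.0215), but the call was lost with well column as a factor (0.49, adjusted p = 0.0974). Hspa5 ran from 660.9 to 907.1 CPM with a median of 735.2 in Nint slices, against 626.6 to 815.3 CPM in vehicle slices. The ranges overlapped (log2 difference 0.17, 95% interval 0.03 to 0.31, adjusted p = 0.0778), and the call depended on the fit: it was reached without vehicle library 6 (0.20, adjusted p = 0.0293), without vehicle libraries 3 and 6 (0.23, adjusted p = 0.0181), with the 2 groups alone (0.16, adjusted p = 0.0322), with a quality component (0.19, adjusted p = 0.0398) and with a replicate block (0.17, adjusted p = 0.0463). Vehicle libraries 6 and 3 were the highest of their group in Hspa5, at 815.3 and 730.5 CPM. Leaving them out raises the difference by itself, so the calls gained without them add no support. Ddit3 ran from 9.102 to 12.98 CPM with a median of 11.35 in Nint slices, against 9.429 to 12.71 CPM in vehicle slices. The 2 ranges were nearly the same (log2 difference 0.02, 95% interval -0.20 to 0.23, adjusted p = 0.946), and the sign turned with RLE scaling, total counts, well column or DESeq2 and without Nint library 1 (-0.0094) or vehicle library 2 (-0.010). Of all tested genes, 13.3% were called higher with Nint, and 7.99% had a larger rise than Trib3. The 3 compounds share the same vehicle libraries, and no dose or time is given, so their values stand side by side only as labelled groups.

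Between compounds, all 3 genes were higher with SB525334 than with Sora or Nint. Against Sora, the log2 fold changes were 0.90 for Hspa5 (SE 0.0732, adjusted p = 3.65e-15), 1.21 for Ddit3 (SE 0.109, adjusted p = 8.75e-14) and 1.46 for Trib3 (SE 0.191, adjusted p = 3.96e-09) by edgeR's quasi-likelihood test. In that comparison 36.1% of tested genes were called higher, and 49.8% of calls were higher, against 25.5% with total counts. For Hspa5 and Ddit3 no SB525334 library overlapped a Sora library with TMM factors, though for Ddit3 8 of 9 lay above all Sora libraries with total counts, while for Trib3 the SB525334 libraries were 7 above and 2 below all Sora libraries. Against Nint, the log2 fold changes were 1.12 for Hspa5 (SE 0.0734, adjusted p = 3.04e-18), 1.46 for Ddit3 (SE 0.110, adjusted p = 3.02e-16) and 1.88 for Trib3 (SE 0.194, adjusted p = 7.29e-12), where 36.4% of genes were called higher and 50.1% of calls were higher, against 23.9% with total counts. Hspa5 and Ddit3 again did not overlap, and 7 SB525334 libraries lay above all Nint libraries in Trib3. Over Nint, 6.76% of genes had a larger rise than Hspa5, 3.57% than Ddit3 and 1.79% than Trib3. The lowest log2 fold changes under the alternatives were 0.74 for Hspa5, 1.07 for Ddit3 and 1.51 for Trib3. Nint and Sora were not called different in any of the 3 genes, and 2.32% of all genes were called in either direction, 59.2% of them higher with Nint, against 78.4% with total counts. The log2 differences were -0.21 for Hspa5 (95% interval -0.36 to -0.07, adjusted p = 0.10), -0.25 for Ddit3 (-0.46 to -0.03, adjusted p = 0.239) and -0.42 for Trib3 (-0.80 to -0.04, adjusted p = 0.250). Those intervals, which are not adjusted for the number of genes tested, leave out 0. Fitting the 2 groups alone called all 3 genes lower with Nint, with adjusted p = 0.0165, 0.0329 and 0.0026 (edgeR quasi-likelihood test). That fit called 1605 genes in either direction, against 343 in the fit of all libraries, so calls were gained widely.

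Against sham slices, the compound groups stood in different places for each gene. With SB525334, Hspa5 was above the sham level by 0.60 on the log2 scale (SE 0.0752, adjusted p = 6.09e-10), with 7 of 9 libraries above all sham libraries. Ddit3 was above it by 1.19 (SE 0.113, edgeR quasi-likelihood test, adjusted p = 1.83e-13), with no overlap. In this comparison 42.9% of tested genes were called higher, and 33% of genes had a larger rise than Hspa5 and 23.4% than Ddit3. Trib3 was not called different from sham (log2 difference 0.35, 95% interval -0.04 to 0.73, adjusted p = 0.0912), with 4 libraries above and 2 below all sham libraries. Whether it was called depended on which libraries were kept. Libraries 4 and 5 were the lowest of their group in Trib3, so leaving them out raises the difference by itself. By edgeR's quasi-likelihood test it was 0.47 without library 4 (adjusted p = 0.00802) and 0.47 without library 5 (adjusted p = 0.00911). Without both, a choice made after their values were seen, it was 0.62 (adjusted p = 1.11e-05). Without libraries 1, 6 and 8, of which 8 and 1 were the highest of their group in Trib3, it was -0.024 (adjusted p = 0.910). Leaving out such libraries lowers the difference by itself. With Sora, Trib3 stayed below sham in all 10 libraries (log2 fold change -1.11, SE 0.190, edgeR quasi-likelihood test, adjusted p = 9.26e-07). Across all alternatives run, its log2 fold change was -1.43 to -0.82. Hspa5 was lower by -0.30 (SE 0.0730, adjusted p = 0.000234), a difference of -0.0044 with total counts (adjusted p = 0.955). Ddit3 differed by -0.02 (95% interval -0.24 to 0.20, adjusted p = 0.882), but by 0.28 with total counts, where it was called (adjusted p = 0.0159). Its sign also turned under 7 other alternatives and without Sora library 1 or 3 or sham library 1 or 3, with values up to 0.076. Of all genes 40.3% were called lower with Sora than in sham slices, and 49.9% of calls were higher, against 65.9% with total counts. With Nint, all 10 libraries lay below all sham libraries in both Trib3 (log2 fold change -1.53, SE 0.193, edgeR quasi-likelihood test, adjusted p = 8.38e-10) and Hspa5 (-0.51, SE 0.0730, adjusted p = 1.49e-08). With total counts, 5 of 10 Nint libraries lay below all sham libraries in Hspa5, and its difference was -0.19 (adjusted p = 0.00911). The Trib3 difference was -1.877 to -1.215 across all alternatives run. For Ddit3 the fold change was -0.26 (SE 0.111, adjusted p = 0.0269), a call lost under RLE scaling and DESeq2 and without Nint library 4, sham library 1 or sham library 3; it was 0.063 with total counts. Here 40.9% of all genes were called lower, and 49.5% of calls were higher, against 66.4% with total counts.

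**Figure D3:**
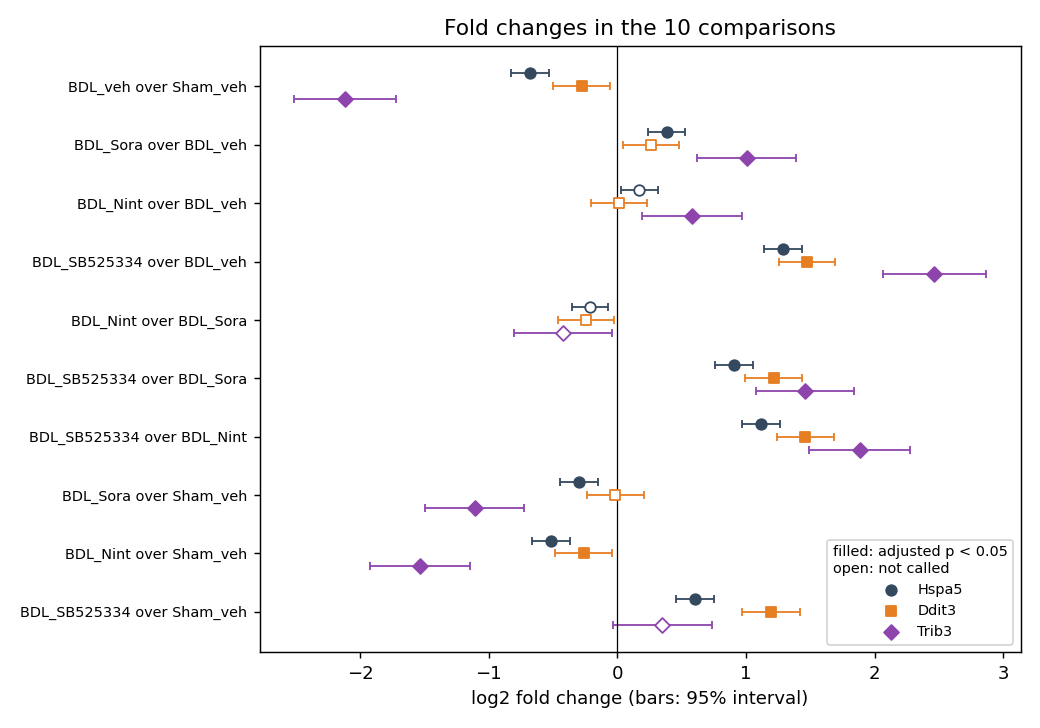
Log2 fold change of Hspa5, Ddit3 and Trib3 in the 10 comparisons, with 95% intervals; filled markers were called at an adjusted p under 0.05. All 3 genes are above 0 for SB525334 over ligated vehicle, Sora and Nint, and Trib3 is at -2.11 for ligated vehicle over sham.

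Ratios within a library compare 2 genes without any scaling factor and show whether they moved by the same amount. Their own size depends on gene length, so only differences between groups are read. The Trib3 to Hspa5 log2 ratio was -6.249 ± 0.1435 in ligated vehicle slices and -4.809 ± 0.309 in sham slices (SD, n = 10 and 9). It was lower in ligated slices by a difference of -1.44 with no overlap (exact permutation test, two-sided, adjusted p = 9.28e-05 over 30 tests, from the smallest p the test can give). The Trib3 to Ddit3 log2 ratio was -0.3407 ± 0.1934 in ligated vehicle slices and 1.531 ± 0.4189 in sham slices, a difference of -1.87 with no overlap (exact permutation test, adjusted p = 9.28e-05). Trib3 therefore stood lower beside both other genes in ligated slices. By contrast, the Ddit3 to Hspa5 log2 ratio was -5.908 ± 0.1394 in ligated vehicle slices and -6.34 ± 0.246 in sham slices, a rise of 0.43 (exact permutation test, adjusted p = 0.000217), with overlap.

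Sora and Nint each raised Trib3 beside the other genes. For Sora, the Trib3 to Hspa5 difference from vehicle was 0.62 with no overlap (permutation test, 100000 draws, adjusted p = 0.00015), and the Trib3 to Ddit3 difference was 0.75 (adjusted p = 9.28e-05). For Nint these differences were 0.41 (permutation test, adjusted p = 0.0036) and 0.56 (adjusted p = 0.000449). For SB525334 the Trib3 to Hspa5 difference from vehicle was 0.94 (exact permutation test, adjusted p = 0.0108) and the Trib3 to Ddit3 difference 0.77 (adjusted p = 0.0273), but both lost their call when libraries 1, 6 and 8 were left out (0.64 and 0.45). Those libraries are named together because they stood apart in an earlier reading of these data. Libraries 8 and 1 were the highest of their group in Trib3, at 97.23 and 68.3 CPM. In both ratios with Trib3, libraries 1, 6 and 8 lay above the mean of their group. Leaving them out therefore lowers these differences by itself. The Trib3 to Ddit3 ratio ran from -1.445 to 1.297 in SB525334 slices, against -0.5828 to 0.04099 in vehicle slices, with libraries 4 and 5 at the low end. The Ddit3 to Hspa5 difference of SB525334 from vehicle was 0.17 and was not called (exact permutation test, adjusted p = 0.113). Against Sora and Nint the Ddit3 to Hspa5 ratio was higher with SB525334 by 0.30 and 0.32 (exact permutation test, both adjusted p = 0.0168), and against sham by 0.60 (adjusted p = 0.000449).

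**Figure D4:**
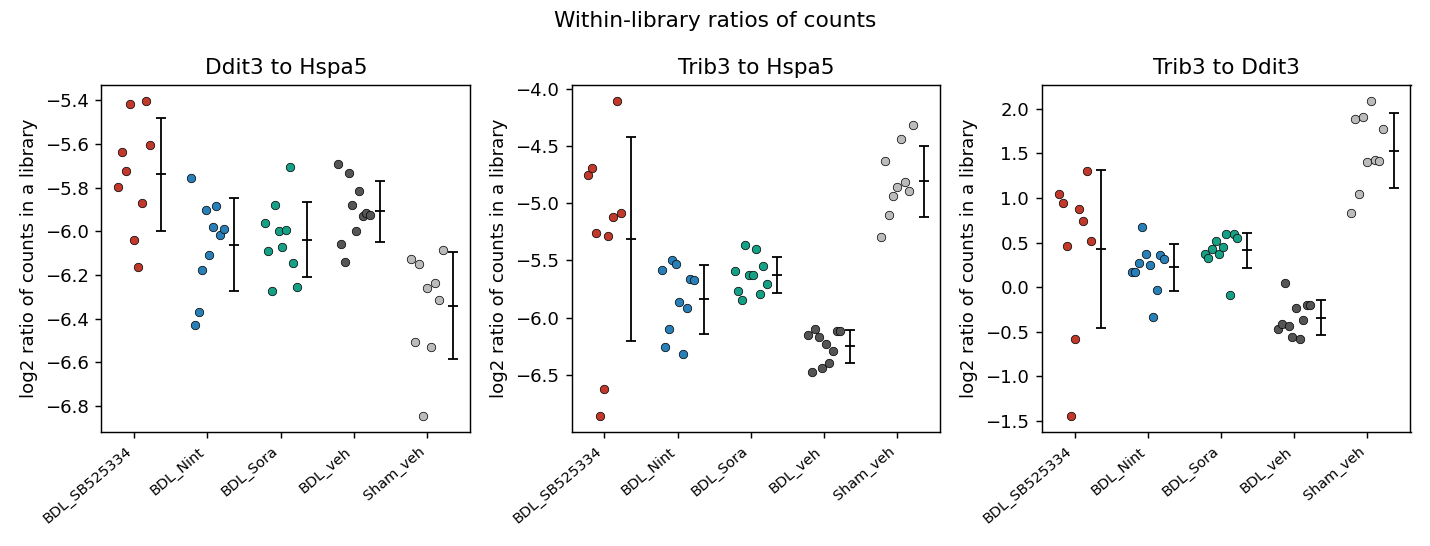
Log2 ratios of counts within each library, for Ddit3 to Hspa5, Trib3 to Hspa5 and Trib3 to Ddit3, with the group mean and SD. By group mean, ratios with Trib3 are highest in sham slices, where Trib3 to Ddit3 averages 1.531, and SB525334 libraries 4 and 5 are the low points of their group in both ratios with Trib3.

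Within groups the 3 genes were not tied to each other by any relation that passed adjustment. Over 15 relations (3 pairs in 5 groups), the largest was Hspa5 with Ddit3 in sham slices, with Pearson's r 0.80 (exact permutation test, p = 0.0112, adjusted p = 0.114; n = 9) and Spearman's rho 0.73 (p = 0.0311, adjusted p = 0.377). It was 0.38 without the 2 libraries farthest from the median of Hspa5. Hspa5 with Trib3 in ligated vehicle slices gave r 0.72 (permutation test, p = 0.0152, adjusted p = 0.114; n = 10) and rho 0.56, and r was 0.10 without the 2 farthest. In SB525334 slices (n = 9) Hspa5 with Trib3 gave r 0.585 (exact permutation test, p = 0.109, adjusted p = 0.444). Its rho was 0.68 (exact permutation test, p = 0.0503, adjusted p = 0.377).

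Across all 48 libraries, deviations from the group means were compared with those of the other 14774 tested genes, as a description; libraries share scaling and composition. ENSRNOG00000060979 was nearest to Hspa5 (r 0.78) and ENSRNOG00000005165 nearest to Ddit3 (r 0.78), and both stood at nearly the same r without the SB525334 libraries (0.76 and 0.77 over 39 libraries). ENSRNOG00000021221 was nearest to Trib3 (r 0.91), followed by ENSRNOG00000033386 (r 0.86), but without the SB525334 libraries these were 0.54 and 0.27. Ddit3 ranked 204 in likeness to Hspa5 (r 0.52), and Trib3 ranked 2518 (r 0.29). Trib3 ranked 2492 in likeness to Ddit3 (r 0.28). Without the SB525334 libraries, r was 0.53 for Hspa5 with Ddit3, 0.068 for Hspa5 with Trib3 and 0.13 for Ddit3 with Trib3. Group means accounted for 89.9% of the variance of Hspa5 in log2 CPM, 84.2% for Ddit3 and 79.5% for Trib3, against a median of 76.4% over all tested genes.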

How the data were processed

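RNA sequencing libraries of rat precision-cut liver slices (48, in 5 groups from the labels) were analysed. The deposited count table holds expected counts per gene; RSEM, edgeR and build Rnor_6.0 are named, without versions, per the submitters' processing notes, and the aligner is not given in the sources used here. Of the deposited counts 8.02% were not whole at a tolerance of 1e-06, and all were rounded. Log2 CPM values and a table of quality metrics in mixed units, other than counts, were deposited by the authors and served in alternatives. With no strand setting given, reads of overlapping or antisense genes may be mixed. Genes were filtered with filterByExpr (14775 kept) and scaled with TMM factors; edgeR 4.0.16 quasi-likelihood tests (robust; R 4.3.3) were fitted to all libraries, with 1 coefficient per group, for 10 comparisons, adjusted by Benjamini-Hochberg over all genes. Standard errors come from the F statistic. Log ratios used 0.5 counts added to each gene and permutation tests in SciPy 1.17.1 (Python 3.11.15), exact with 9 libraries in a group, otherwise 100000 draws. The script was tested on simulated data. Genes named in the text are the 3 members, taken by ID, and the genes nearest to each in deviation from the group means (the rule for named genes takes 2 each; IDs of 4 are given). Pathway and marker lists need symbols and were not used. Members, lists and tests were chosen with earlier results of these data known. Depth ranged from 12249470 to 29596987 counts per library. Alternatives were RLE factors, total counts, DESeq2 1.42.0, limma 3.58.1 on the deposited log2 values, other filters, fits of 2 groups alone, a replicate block, well column, a quality component and libraries left out. Promoter sequences are from RefSeq on GRCr8, and 3 of 3 members matched by symbol.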

Additional observations from a re-analysis of the deposited data

Results flagged for a closer look

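Among 30 groups of values examined (3 genes and 3 ratios in 5 groups), 3 held a library far from the others of its group, and chance alone marks about 1 group in 20. In Sora slices, Ddit3 was 17.3 CPM in library 8, against 11.24 to 14.37 CPM in the other 9. In the same library the Trib3 to Ddit3 log2 ratio was -0.086, against 0.3284 to 0.5987 in the others, a value that shares its Ddit3 count with the first. Hspa5 was 720.4 CPM in Sora library 4, against 851.7 to 968.0 CPM in the others, and was the 1 Sora library inside the range of ligated vehicle slices.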

How the results depend on the processing

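Of 30 fold changes (3 genes in 10 comparisons), 18 kept their direction and their side of the threshold under every alternative run, among them all 3 genes for SB525334 over ligated vehicle, Sora and Nint and both Hspa5 and Trib3 for ligated vehicle over sham; of 30 ratio differences 21 did. For the rest the cause was not tested. Values are log2 differences. Ddit3 in ligated vehicle over sham was -0.18 with RLE factors, -0.18 with a filter of 5 CPM in 9 libraries, -0.21 with the 2 groups alone, -0.25 with well column, -0.17 with the quality component, -0.19 on the authors' log2 CPM, -0.18 with DESeq2 and 0.078 with total counts. Ddit3 in Nint over sham was -0.19, -0.17, -0.22, -0.17 and -0.18 under RLE factors, the 5 CPM filter, the 2 groups alone, the quality component and the authors' values, -0.19 with DESeq2 and 0.063 with total counts. Ddit3 in Sora over sham was 0.040 with RLE factors, 0.28 with total counts (called), 0.069 with the 5 CPM filter, 0.0018 with a replicate block, 0.0048 with well column, 0.071 with the quality component, 0.054 on the authors' values and 0.042 with DESeq2. Ddit3 in Nint over vehicle was -0.013, -0.015, -0.034 and -0.013 with RLE factors, total counts, well column and DESeq2. Hspa5 in Sora over sham was -0.0044 with total counts. Trib3 in Nint over vehicle was 0.49 with well column. Calls were gained with the 2 groups alone for Ddit3 in Sora over vehicle (0.24), Hspa5 in Nint over vehicle (0.16) and Hspa5, Ddit3 and Trib3 in Nint over Sora (-0.21, -0.24 and -0.42). Hspa5 in Nint over vehicle was also called with the replicate block (0.17), the quality component (0.19) and without vehicle libraries 3 and 6 (0.23). Leaving out each library in turn gave -0.34 to -0.19 for Ddit3 in ligated vehicle over sham, 0.21 to 0.29 for Ddit3 in Sora over vehicle, 0.14 to 0.20 for Hspa5 in Nint over vehicle, -0.010 to 0.045 for Ddit3 in Nint over vehicle, -0.081 to 0.076 for Ddit3 in Sora over sham, -0.33 to -0.17 for Ddit3 in Nint over sham and 0.16 to 0.47 for Trib3 in SB525334 over sham. Without SB525334 libraries 1, 6 and 8, Trib3 in SB525334 over sham was -0.024, and without libraries 4 and 5 it was 0.62. Without vehicle libraries 3 and 6 the Ddit3 to Hspa5 ratio was called at -0.17 for Sora and -0.19 for Nint over vehicle. In that ratio these libraries stood at -6.14 and -5.999, below the vehicle mean of -5.908. Leaving them out widens the difference by itself. Without SB525334 libraries 1, 6 and 8, Trib3 to Hspa5 was 0.64 over vehicle and -0.80 over sham, and Trib3 to Ddit3 was 0.45 over vehicle, -0.30 over Sora and -0.11 over Nint. Libraries 8 and 1 were the highest of their group in Trib3, so leaving them out lowers these values by itself. Libraries 4 and 5, the lowest of their group in Trib3, were left out after their values were seen. Without them Trib3 to Hspa5 was 0.73 over Sora and 0.94 over Nint, and Trib3 to Ddit3 was 0.43 and 0.62. Whether libraries of the same number share an animal is not in the labels. Correlations of deviations cannot decide it, since libraries also share scaling and composition. Over 93 same-numbered pairs the mean correlation of deviations was 0.0236, with 25 over 0.1. For different numbers it was -0.00173, with 188 of 828 over 0.1. The nearest library of another group had the same number for 6 of 48. The replicate block left the number of called genes between 0.9038 and 1.004 times the main count in all 10 comparisons. Over all genes, Nint over Sora gave 343 calls, against 1605 with the 2 groups alone, 598 with DESeq2, 161 with well column, 171 on the authors' values and 166 to 567 without single libraries, and Nint over vehicle gave 3587 against 5674 with the 2 groups alone.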
